A study of Mus musculus with 6 samples.

Results

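The genes described are 10 markers of hippocampal interneurons, chosen by name: Gad1 and Gad2, the neuropeptide genes Cck, Sst, Npy and Vip, the calcium-binding protein genes Pvalb and Calb2, and the surface and matrix genes Lamp5 and Reln. All 10 were found in the deposited tables, among 52550 genes in the count table, and all 10 were among the 16758 genes tested. Each library was made from whole hippocampus of a male C57BL/6J mouse, 3 in the Control group and 3 in the TAF15 OE group. All 6 mice had a stereotaxic injection of adeno-associated virus (AAV) into the CA1 field on both sides at 8 weeks of age, and their labels give 31 days. Control mice received a control AAV; TAF15 OE mice received a TAF15 AAV whose label names CaMKIIα, a promoter used to drive expression in excitatory neurons. The label thus names no interneuron promoter. Because bulk tissue was sequenced, fewer cells of a type and less RNA per cell cannot be told apart.

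Interneurons are the local inhibitory neurons of the hippocampus. They make GABA from glutamate with the enzymes encoded by Gad1 and Gad2, load it into vesicles with the transporter encoded by Slc32a1, and inhibit pyramidal and granule neurons at the soma, the dendrites or the axon. Their classes are told apart by peptides and calcium-binding proteins. Pvalb marks fast-spiking basket and axo-axonic cells, Sst marks dendrite-targeting cells that include the oriens-lacunosum moleculare type, Cck marks another kind of basket cell, and Vip and Calb2 mark cells that largely inhibit other interneurons. Lamp5, Reln and Npy mark neurogliaform and related cells. Several of these genes are not confined to interneurons: pyramidal neurons also carry Cck, and Reln and Calb2 are made by Cajal-Retzius cells, Calb2 also by dentate mossy cells.

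Library totals ran from 14965464 to 16067000 counts. Counts of Taf15, the targeted gene, were 795 to 958 across the Control libraries and 3661 to 4477 across those of TAF15 OE. On the second principal component (21.7% of the variance) Control 1 and TAF15 OE 1 stood apart from the other 4 libraries. The summed level of 10 choroid plexus markers was 154 CPM (counts over TMM-scaled library totals) in Control 1 and 1599 in TAF15 OE 1, against 4458 to 5178 in the rest. Excitatory neuron markers were detected in every library, and so were all 10 interneuron markers.

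Per gene length, the peptide genes Sst and Cck were the most abundant of the 10. In FPKM, which divides counts by library total and gene length, Sst stood at 257 ± 24.4 in Control and Cck at 199 ± 16.1 (mean ± SD, n = 3 mice, as for all levels below). Npy followed at 56.8 ± 7.97, Gad1 at 38.8 ± 1.34 and Gad2 at 22.6 ± 1.32. Pvalb (22.2 ± 2.14) and Calb2 (19.9 ± 2.07) came next in Control, then Lamp5 (12.1 ± 0.637), Vip (3.48 ± 0.916) and Reln (3.02 ± 0.145). Over all 6 libraries the FPKM ranges of Sst and Cck overlapped, although Sst was higher than Cck within each of the 6. Gad2 and Pvalb, Pvalb and Calb2, and Vip and Reln also overlapped with each other in level, and these neighbours are not ordered by the data. For the remaining neighbours the ranges of the 6 libraries did not overlap.

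**Figure D1:**
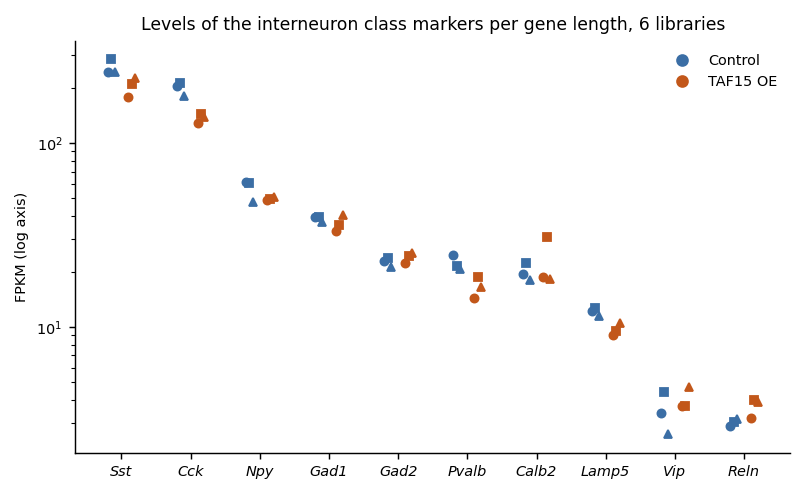
FPKM (log axis) of the 10 interneuron class markers in each of 6 libraries, ordered by the Control mean; each point is 1 mouse, blue for Control and orange for TAF15 OE, with circles, squares and triangles for replicates 1, 2 and 3. Sst and Cck lie highest and Vip and Reln lowest, at 2.61 to 4.70 and 2.87 to 4.02 FPKM.

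Sst and Vip are textbook genes of the cAMP response element, the DNA element through which the activity-regulated factor CREB acts. The 250 bases before the RefSeq start (GRCm38.p6) are shown for the 4 genes called lower in TAF15 OE. Vip was added as a peptide gene that was not called. Capitals mark the core site TGACG on either strand, which also lies within the full element TGACGTCA, and the E-box CACGTG, the palindrome of many basic helix-loop-helix factors. All sequences are written 5′ to 3′ on the strand of the gene.
Sst (chr16:23890845-23891094, minus strand): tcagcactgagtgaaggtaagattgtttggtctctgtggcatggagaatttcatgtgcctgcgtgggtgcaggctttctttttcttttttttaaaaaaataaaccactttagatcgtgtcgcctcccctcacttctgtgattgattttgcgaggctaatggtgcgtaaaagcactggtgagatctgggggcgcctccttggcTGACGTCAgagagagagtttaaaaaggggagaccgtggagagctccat
Cck (chr9:121495695-121495944, minus strand): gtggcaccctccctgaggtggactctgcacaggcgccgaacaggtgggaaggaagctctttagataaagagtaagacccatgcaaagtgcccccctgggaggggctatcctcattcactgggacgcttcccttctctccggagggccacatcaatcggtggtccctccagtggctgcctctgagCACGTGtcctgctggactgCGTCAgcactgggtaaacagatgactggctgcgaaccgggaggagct
Pvalb (chr15:78206401-78206650, minus strand): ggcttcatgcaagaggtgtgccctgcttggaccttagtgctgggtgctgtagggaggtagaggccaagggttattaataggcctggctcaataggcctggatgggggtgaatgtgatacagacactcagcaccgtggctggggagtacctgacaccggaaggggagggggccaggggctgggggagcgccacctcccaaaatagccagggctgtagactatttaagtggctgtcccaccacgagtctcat
Lamp5 (chr2:136052089-136052338, plus strand): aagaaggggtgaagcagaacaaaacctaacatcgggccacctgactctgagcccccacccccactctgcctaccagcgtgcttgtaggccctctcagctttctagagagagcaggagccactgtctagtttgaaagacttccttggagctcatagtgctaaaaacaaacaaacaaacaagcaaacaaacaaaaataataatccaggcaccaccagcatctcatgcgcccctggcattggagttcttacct
Vip (chr10:5638968-5639217, plus strand): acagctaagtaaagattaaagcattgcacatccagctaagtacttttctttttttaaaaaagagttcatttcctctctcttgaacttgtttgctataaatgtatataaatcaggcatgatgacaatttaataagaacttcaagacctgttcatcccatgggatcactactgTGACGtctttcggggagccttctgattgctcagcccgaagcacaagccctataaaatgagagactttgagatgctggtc
Of the 10 genes, 9 had a RefSeq entry, all but Calb2. The full element TGACGTCA occurred in 1 of these 9 windows, that of Sst, beginning 48 bases before the start, and in 1.55% of 32851 RefSeq windows of this length. The core site TGACG, on either strand, occurred in 4 of the 9 (Sst, Vip, Cck and Gad2) and in 17.8% of all windows. Vip held it 79 bases before the start and Cck 47 bases before. CACGTG occurred in 2 of the 9, Cck and Reln, and in 6.02% of all windows. Of the 4 genes that were lower, Sst and Cck thus held a core site, while the windows of Pvalb and Lamp5 held none of these letters.

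In TAF15 OE, 4 of the 10 markers fell: Cck, Pvalb, Sst and Lamp5, by 22.6% to 33.2%. No marker rose by the test (Reln had the smallest unadjusted p among the higher ones, 0.0137, and DESeq2 and limma-voom called 0 as well), and Gad1 and Gad2, which all GABA neurons share, did not pass it. Across all 16758 tested genes 5.95% were called lower and 9.32% higher by the same test, edgeR's quasi-likelihood test with a Benjamini-Hochberg adjusted p below 0.05. The median log2 fold change of the 10 was -0.19, against 0.026 over all tested genes. The groups did not overlap in 5 of the 10, the 4 that fell and Reln, where TAF15 OE was higher; over all tested genes that share was 34.6%. General neuronal genes were lower as well: of 25 pan-neuronal genes 14 fell and none rose, with a median of -0.26, and of 12 excitatory neuron markers 8 fell and none rose, with a median of -0.60. For this reason libraries were also scaled on the pan-neuronal genes.

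**Figure D2:**
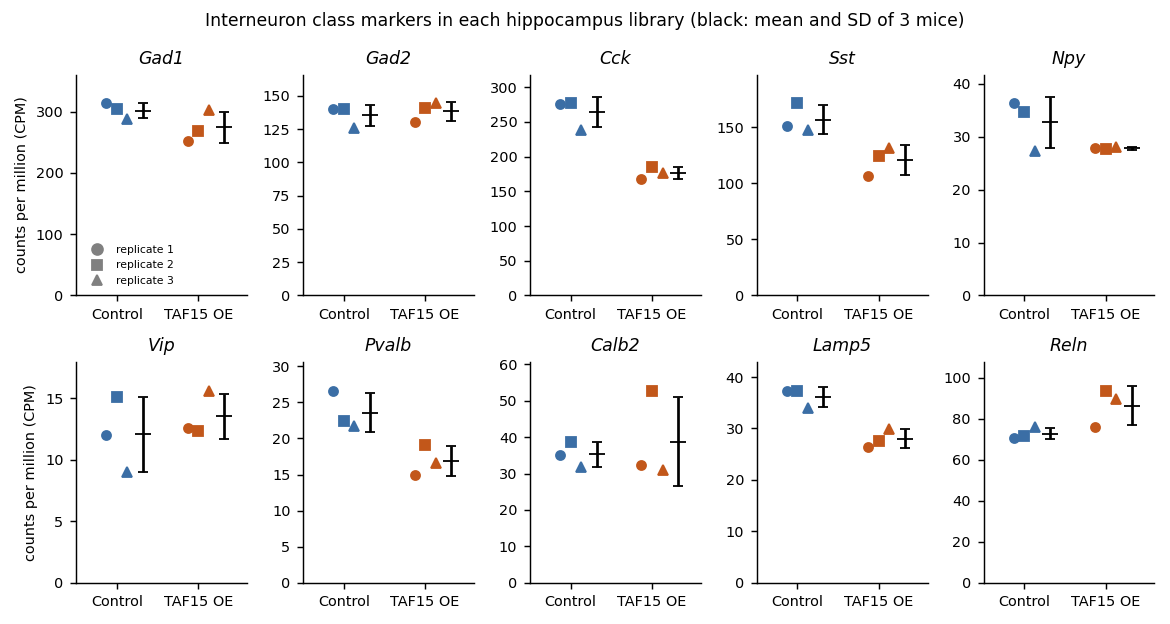
CPM of each marker in Control (blue) and TAF15 OE (orange), 1 point per mouse with the symbol giving the replicate number; the black bar is the mean with SD of 3 mice and each axis starts at 0. The TAF15 OE points of Cck, Sst, Pvalb and Lamp5 all lie below the Control points, while those of Gad1, Gad2, Npy, Vip and Calb2 overlap with Control.

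Gad1 (ENSMUSG00000070880, chromosome 2, 70553072 to 70602014, plus strand, GRCm38) encodes the glutamate decarboxylase that makes most of the GABA of the cell body. Its level was 313, 303 and 288 CPM in Control 1, 2 and 3 and 252, 268 and 303 CPM in TAF15 OE 1, 2 and 3. TAF15 OE 1 and 2 lay below every Control library and TAF15 OE 3 among them. The log2 fold change was -0.14 (SE 0.078, 95% interval -0.31 to 0.032, adjusted p = 0.268). Gad2 (ENSMUSG00000026787, chromosome 2, 22622205 to 22693874, plus strand), which encodes the form enriched at nerve terminals, stood at 140, 140 and 126 CPM in Control and 130, 141 and 144 CPM in TAF15 OE. These groups overlapped, with a log2 fold change of 0.032 (SE 0.073, interval -0.13 to 0.19, adjusted p = 0.817). The intervals thus leave room for a drop of Gad1 by up to 0.31 and of Gad2 by up to 0.13 on the log2 scale. The vesicular GABA transporter gene Slc32a1 was at 70.8 ± 3.46 CPM in Control and 64.3 ± 5.05 CPM in TAF15 OE (log2 fold change -0.14, adjusted p = 0.274). It did not pass. Under scaling on pan-neuronal genes Gad2 was called higher (0.30, adjusted p = 0.00838), and Gad1 (0.13) and Slc32a1 (0.13) lay above 0 without a call. Gad1 overlaps the antisense gene Gad1os in GENCODE M21, and with the strandedness of counting unknown, reads of the pair cannot be told apart there.

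Cck (ENSMUSG00000032532, chromosome 9, 121489824 to 121495694, minus strand), the cholecystokinin precursor, showed the largest fall of the 10. It stood at 276, 277 and 239 CPM in Control 1, 2 and 3 and at 167, 185 and 177 CPM in TAF15 OE 1, 2 and 3. All TAF15 OE libraries were below all Control libraries, and the gap between the groups was wider than the spread within either. Cck fell by 33.2%, a log2 fold change of -0.58 with SE 0.077 and adjusted p = 0.00111. The direction and the call held in all 18 alternatives run, at adjusted p up to 0.0400, with a log2 fold change between -0.65 and -0.31. Since pyramidal neurons carry Cck too, the excitatory markers are the values beside it: their summed level was 11324 to 13644 CPM in Control and 7321 to 9180 in TAF15 OE. The part of that shift in the fall of Cck was not tested.

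Sst (ENSMUSG00000004366, chromosome 16, 23889581 to 23890844, minus strand), the somatostatin precursor, was at 151, 171 and 148 CPM in Control and at 106, 124 and 132 CPM in TAF15 OE. The highest TAF15 OE library was below the lowest Control library. Sst fell by 22.9%, a log2 fold change of -0.38 with SE 0.091 and adjusted p = 0.0182. With Control 2 left out it was not called (-0.31, adjusted p = 0.0718). Under scaling on pan-neuronal genes its value was -0.11 (adjusted p = 0.395). On FPKM, limma-trend did not call it either (adjusted p = 0.0997 to 0.213).

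Npy (ENSMUSG00000029819, chromosome 6, 49822710 to 49829507, plus strand) encodes neuropeptide Y, made by Ivy and neurogliaform cells and by many Sst cells. Its level was 36.3, 34.6 and 27.3 CPM in Control and 27.9, 27.6 and 28.2 CPM in TAF15 OE. The TAF15 OE libraries were close together, and Control 3 was lower than all of them, so the groups overlapped. Npy did not pass (log2 fold change -0.23, SE 0.11, adjusted p = 0.191), but without Control 3 it did (-0.35, adjusted p = 0.0491). Its sign turned to 0.038 under scaling on pan-neuronal genes. Vip (ENSMUSG00000019772, chromosome 10, 5639218 to 5647617, plus strand), the vasoactive intestinal peptide precursor, was the marker with the fewest counts, 135 to 257 per library. It was at 12.0, 15.1 and 8.99 CPM in Control and 12.6, 12.4 and 15.6 CPM in TAF15 OE. The Control mice alone spanned almost the whole range, and the log2 fold change was 0.17 (SE 0.18, interval -0.24 to 0.57, adjusted p = 0.603). The interval leaves room for a drop of up to 0.24 or a rise of up to 0.57 on the log2 scale. Without Control 3 the Vip value was -0.0076, and under scaling on pan-neuronal genes it was 0.44 (adjusted p = 0.0826).

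Pvalb (ENSMUSG00000005716, chromosome 15, 78191114 to 78206400, minus strand) encodes parvalbumin, the fast calcium buffer of basket and axo-axonic cells. It was at 26.6, 22.4 and 21.7 CPM in Control and 14.9, 19.1 and 16.6 CPM in TAF15 OE. Every TAF15 OE library was below every Control library, with Control 1 highest and TAF15 OE 1 lowest. Pvalb fell by 28.3%, a log2 fold change of -0.48 with SE 0.13 and adjusted p = 0.0263. Leaving out Control 1 (-0.39, adjusted p = 0.104), Control 2 (-0.52, adjusted p = 0.0610) or TAF15 OE 3 (-0.48, adjusted p = 0.0636) ended the call, as did leaving out Control 1 together with TAF15 OE 1 (-0.33, adjusted p = 0.117). Scaling on pan-neuronal genes gave -0.21 (adjusted p = 0.214) and FPKM adjusted p of 0.0598 to 0.122.

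Calb2 (ENSMUSG00000003657, chromosome 8, 110137502 to 110168210, minus strand) encodes calretinin, another calcium-binding protein. It stood at 35.2, 38.7 and 31.9 CPM in Control and at 32.5, 52.8 and 31.0 CPM in TAF15 OE. TAF15 OE 2 was higher than every other library. TAF15 OE 1 was just above the lowest Control library and TAF15 OE 3 just below it. The log2 fold change of 0.13 (SE 0.21, adjusted p = 0.735) became -0.17 without TAF15 OE 2, and under scaling on pan-neuronal genes it was 0.41 (adjusted p = 0.190). The summed level of 8 Cajal-Retzius markers was also highest in TAF15 OE 2, at 35.2 CPM. It was 17.2 and 27.7 in TAF15 OE 1 and 3 and 12.4 to 23.0 in Control. This sum was lowest in Control 1 (12.4) and TAF15 OE 1 (17.2), as was that of the choroid plexus markers (154 and 1599 CPM). The tested member of the list with the highest Control level, 1.84 FPKM, had an SE of 0.81. The part of choroid plexus in the sum was not tested. Apart from Calb2, the 8 thalamus markers summed to 172, 159 and 155 CPM in TAF15 OE 1, 2 and 3 and to 114 to 126 in Control. TAF15 OE 2 was thus not the highest there. Of these markers 4 rose, where 9.32% of all tested genes were called higher. The sum of 8 dentate mossy cell markers was lower in TAF15 OE, at 194 to 203 CPM against 217 to 227. Single markers were mixed, with 2 called lower and 1 higher, where 5.95% and 9.32% of all tested genes were. Of the 8, 5 lay above 0 and 3 below, with a median log2 fold change of 0.18. The 2 called lower, Ociad2 and Ephb6, had the highest Control FPKM of this list. The part of these cells in the Calb2 value was not tested.

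Lamp5 (ENSMUSG00000027270, chromosome 2, 136052239 to 136069917, plus strand) encodes a membrane protein of the lysosome-associated family that marks neurogliaform cells. Its level was 37.4, 37.2 and 33.9 CPM in Control and 26.5, 27.5 and 30.0 CPM in TAF15 OE, with no overlap. Lamp5 fell by 22.6%, a log2 fold change of -0.37 with SE 0.091 and adjusted p = 0.0205. It was not called with Control 1 (-0.35, adjusted p = 0.0686), Control 2 (-0.35, adjusted p = 0.0685) or TAF15 OE 2 (-0.37, adjusted p = 0.0659) left out, nor with Control 1 and TAF15 OE 1 left out together (-0.33, adjusted p = 0.0580). Under scaling on pan-neuronal genes it was -0.099 (adjusted p = 0.414), and on FPKM adjusted p was 0.0518 to 0.0934. Lamp5 was also on a list of 10 neocortex and striatum markers. Of these 2 were called lower, Lamp5 among them, and 2 higher, where 5.95% and 9.32% of all tested genes were. The list median was 0.12. Its summed level was 406 to 435 CPM in Control and 372 to 465 CPM in TAF15 OE. The part of such tissue in the Lamp5 value was not tested.

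Reln (ENSMUSG00000042453, chromosome 5, 21884454 to 22344702, minus strand) encodes reelin, a large secreted matrix protein. It was at 70.8, 71.8 and 76.0 CPM in Control 1, 2 and 3 and at 76.0, 93.8 and 89.8 CPM in TAF15 OE 1, 2 and 3. TAF15 OE 1 was just above the highest Control library and the other two well above it. The log2 fold change of 0.25 (SE 0.085, interval 0.061 to 0.43) did not pass (adjusted p = 0.0737). It was called higher in 5 of 18 alternatives, among them scaling on pan-neuronal genes (0.52, adjusted p = 0.00172). The others included leaving out TAF15 OE 1 (0.31, adjusted p = 0.0199), leaving out Control 1 and TAF15 OE 1 together (0.29, adjusted p = 0.0384) and total counts as the only scaling (0.30, adjusted p = 0.0446). Among the Cajal-Retzius markers, whose cells secrete reelin, 1 of 5 tested rose, Ebf3 (log2 fold change 1.62, adjusted p = 0.0105). Its Control level was low, at 0.126 FPKM. All 5 lay above 0, with a median of 0.58, while 9.32% of all tested genes were called higher. The summed levels overlapped between the groups, at 12.4 to 23.0 and 17.2 to 35.2 CPM. They were lowest in Control 1 and TAF15 OE 1, as were those of the choroid plexus markers. The part of Cajal-Retzius cells in the Reln value was not tested. Reln overlaps 7 other annotated genes in GENCODE M21, 2 of them antisense, so some of its counts are uncertain.

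The scaling sets how much of these falls is seen. The 25 pan-neuronal genes summed to 17655 to 18327 CPM in Control and to 14599 to 15177 in TAF15 OE. When libraries were scaled on them, the median of all tested genes moved to 0.29 on the log2 scale and the median of the 10 markers to 0.085. Cck was then the only marker called lower (-0.31, adjusted p = 0.00880), while Gad2 (0.30, adjusted p = 0.00838) and Reln (0.52, adjusted p = 0.00172) were called higher. Over all tested genes 37.5% were called higher and 0.889% lower under this scaling. Gad1 moved to 0.13 and was not called (adjusted p = 0.189). With DESeq2's size factors and with total counts the same 4 genes were called lower as with the main scaling. With the main scaling, lists of glial and vascular cells moved the opposite way to the pan-neuronal and excitatory ones. Of their markers 11 of 12 rose for microglia, 9 of 10 for oligodendrocytes and 7 of 11 for astrocytes. Of endothelial and mural cell markers 6 of 10 rose, and no marker of these lists fell. Over all tested genes that scaling called 9.32% higher and 5.95% lower. None of the 10 choroid plexus markers was called. Summed microglia markers were at 558 to 606 CPM in Control and at 1126 to 1751 in TAF15 OE. Beyond the fit scaled on pan-neuronal genes, the part of this shift in the values of the markers was not tested.

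**Figure D3:**
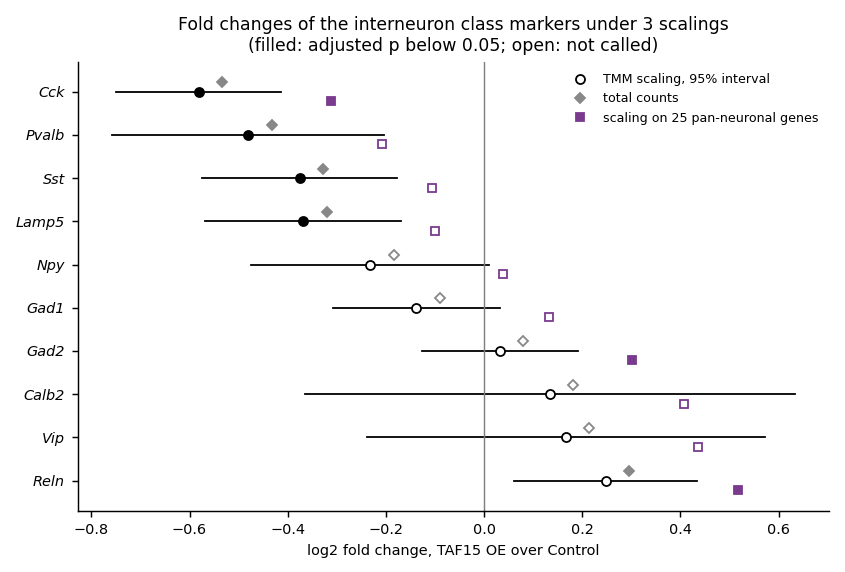
Log2 fold change (TAF15 OE over Control) of each marker under TMM scaling (black, with the 95% interval), total counts (grey) and scaling on 25 pan-neuronal genes (purple); filled symbols passed an adjusted p below 0.05. Scaling on pan-neuronal genes shifts every marker upwards, and Cck alone is below 0 and filled under all 3 scalings.

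Ratios within a library do not depend on that scaling, so each marker was set against the summed FPKM of Gad1 and Gad2. They do depend on the choice of Gad1 plus Gad2 as the reference. The log2 ratio of Cck was 1.69 ± 0.057 in Control and 1.19 ± 0.10 in TAF15 OE, a difference of -0.50. For Lamp5 it was -2.34 ± 0.017 and -2.64 ± 0.022 (difference -0.29), the tightest of the 9 ratios within both groups. For Pvalb the difference was -0.41 and for Sst -0.30, and for all 4 genes the groups did not overlap. These 4 already did not overlap in CPM, and neither Gad1 nor Gad2 was called, so their ratios give no separate support. Reln moved the other way, with a difference of 0.32 and no overlap, while Npy (-0.15), Vip (0.26) and Calb2 (0.17) overlapped. The ratio of Gad1 to Gad2 was 0.78 ± 0.038 in Control and 0.60 ± 0.074 in TAF15 OE on the log2 scale, a difference of -0.17 without overlap. With 3 mice against 3 the exact two-sided permutation test cannot go below 0.1. That value was reached by Cck, Pvalb, Sst, Lamp5, Reln and the Gad1 to Gad2 ratio (adjusted over the 9 ratios, 0.15 each), so none could pass.

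**Figure D4:**
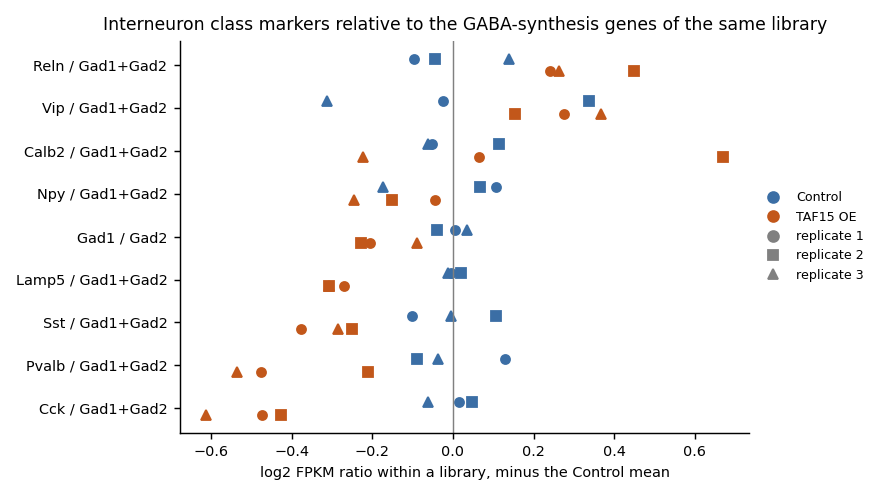
Log2 FPKM ratio of each marker to Gad1 plus Gad2, and of Gad1 to Gad2, within a library, shown relative to the Control mean; each point is 1 mouse, blue for Control and orange for TAF15 OE, with the symbol giving the replicate number. Relative to Gad1 plus Gad2, the TAF15 OE points lie 0.50 lower on average for Cck and 0.32 higher for Reln, without overlap.

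Further genes linked to these classes, their peptides or their receptors were described by 8 lists. Not all of them are confined to interneurons, and bulk values do not say which cells a change came from. Beside them, the median of the 25 pan-neuronal genes was -0.26. In all 110 genes were tested, each counted once, and by the main fit 11 were called lower and 11 higher. Across all tested genes that fit called 5.95% lower and 9.32% higher. Under scaling on pan-neuronal genes these counts became 1 and 37, where 0.889% of all tested genes were called lower and 37.5% higher. Of 16 genes of parvalbumin cells 2 fell and 1 rose (median -0.10). The fallers were the synaptic release gene Cplx1, from 587 ± 14.5 to 473 ± 6.57 CPM (log2 fold change -0.31, adjusted p = 0.00807), and the fast potassium channel gene Kcnc2 (-0.25, adjusted p = 0.0438). Hapln1, a link protein of perineuronal nets, rose (0.33, adjusted p = 0.0306). Of 13 tested genes of somatostatin cells 2 fell and none rose (median -0.35). These were Crhbp, which encodes the binding protein of corticotropin-releasing hormone, and the calcium channel subunit gene Cacna2d3 (-0.37, adjusted p = 0.00943). Crhbp was at 24.8, 25.9 and 20.6 CPM in Control and 11.8, 13.7 and 17.2 CPM in TAF15 OE. Its groups did not overlap, and it fell by 40.1% (log2 fold change -0.74 with SE 0.15, adjusted p = 0.00850). Of 14 genes of Vip, Cck and calretinin cells none fell and 1 rose, Crispld2, at 2.36 ± 0.227 CPM in Control and 5.04 ± 1.35 CPM in TAF15 OE (1.09, adjusted p = 0.0148); the median was 0.26. Of 11 genes of Lamp5, reelin and neurogliaform cells 2 fell, the channel genes Cacna2d1 (-0.30, adjusted p = 0.0140) and Fgf13 (-0.30, adjusted p = 0.0205), the latter a sodium channel-binding factor. The secreted factor gene Ndnf (0.54, adjusted p = 0.00759) and the growth factor receptor gene Egfr (0.52, adjusted p = 0.0201) rose (median -0.072).

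**Figure D5:**
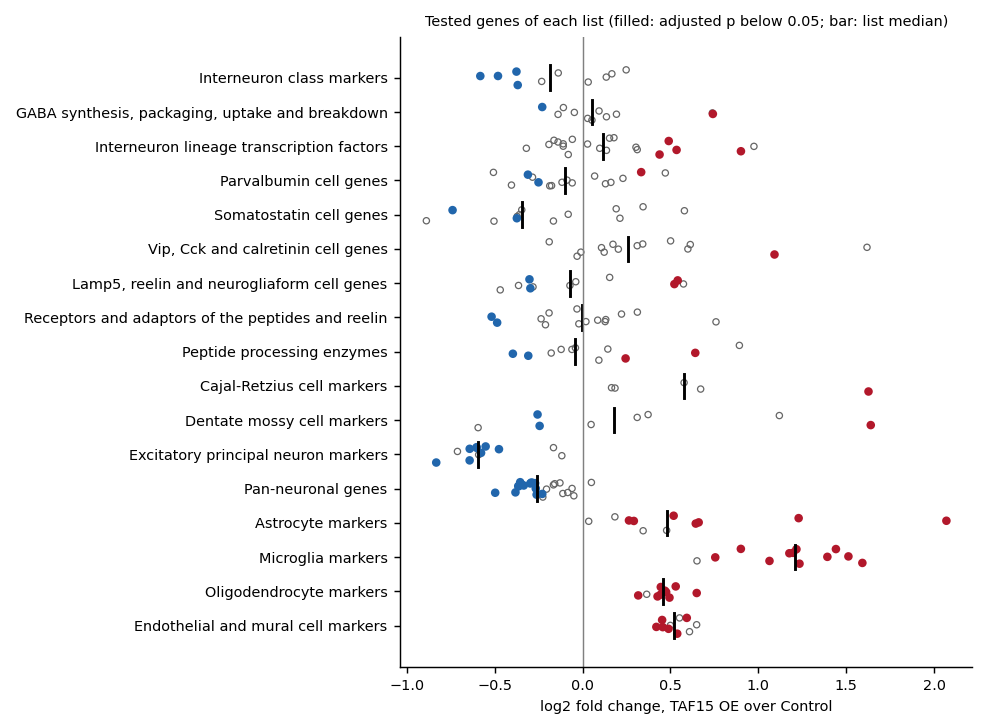
Log2 fold change (TAF15 OE over Control) of every tested gene of 17 lists, 1 point per gene with a random vertical offset; blue and red points passed the test (lower and higher), open points did not, and the black bar is the list median. The interneuron lists have medians from -0.35 to 0.26, the excitatory list -0.60 and the microglia list 1.21.

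Of 20 tested transcription factor genes of the interneuron lineage, none was called lower and 4 were called higher. Across all tested genes these shares were 5.95% and 9.32%. The log2 fold change was below 0 for 8 of the 20, and the median was 0.12. Lhx6, which marks cells born in the medial ganglionic eminence, the source of Pvalb and Sst cells, was at 21.1, 20.8 and 21.5 CPM in Control and 18.4, 20.5 and 20.9 CPM in TAF15 OE. These groups overlapped (log2 fold change -0.081 with SE 0.10, adjusted p = 0.649), and under scaling on pan-neuronal genes the value was 0.19. Among those that rose were Sox6 (0.53, adjusted p = 0.0165), also found in oligodendrocyte precursors, Id2 (0.49, adjusted p = 0.0190) and Npas3 (0.44, adjusted p = 0.0252). Of 11 genes of GABA handling 1 rose, Slc38a3 (0.74, adjusted p = 0.0263), a glutamine transporter of astrocytes, and 1 fell, the neuronal glutamate transporter gene Slc1a1 (-0.23, adjusted p = 0.0445).

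On the receiving side, 2 of 14 tested receptor and adaptor genes of the peptides and reelin fell and none rose. Across all tested genes 5.95% were called lower and 9.32% higher. Both genes that fell encode somatostatin receptors. The somatostatin receptor genes Sstr1 (0.31, adjusted p = 0.0776) and Sstr2 (0.086, adjusted p = 0.728) were not called. For Sstr1 the groups did not overlap, with TAF15 OE higher. Sstr3, found on neuronal cilia, was at 35.8, 39.6 and 41.4 CPM in Control and at 24.9, 29.7 and 27.0 CPM in TAF15 OE, without overlap, and fell by 30.1% (log2 fold change -0.52 with SE 0.099, adjusted p = 0.00622). Sstr4, the somatostatin receptor gene with the highest FPKM here, was at 38.6, 27.4 and 31.2 CPM in Control and 26.1, 19.6 and 23.6 CPM in TAF15 OE (log2 fold change -0.49 with SE 0.14, adjusted p = 0.0447), and was not called with total counts (adjusted p = 0.0501), by limma-voom (0.0629) or on FPKM (0.103 to 0.199). The receptor genes with the highest mean FPKM over all 6 libraries for the other ligands did not pass: Npy2r had a log2 fold change of -0.19 (adjusted p = 0.527), Cckbr of -0.21 (adjusted p = 0.730), Vipr1 of -0.032 (adjusted p = 0.889) and the reelin receptor gene Vldlr of 0.13 (adjusted p = 0.419). Under scaling on pan-neuronal genes Npy2r (0.077), Cckbr (0.058) and Vipr1 (0.24) lay above 0 and Vldlr was called higher (0.40, adjusted p = 0.0176). Without TAF15 OE 1 Npy2r was called lower (-0.42, adjusted p = 0.0351). Of 11 peptide processing genes 2 fell, the prohormone convertase gene Pcsk2 (-0.31, adjusted p = 0.00875) and Scg5 (-0.40, adjusted p = 0.0155), which encodes the chaperone of that convertase. The carboxypeptidase gene Cpe (0.24, adjusted p = 0.0408) and the peptidase gene Prcp (0.64, adjusted p = 0.0154) rose.

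Fits with a library left out ended many of the calls of these further genes, mostly with little movement of the fold change. Hapln1 was lost whichever of the 6 libraries was left out, at log2 fold changes of 0.28 to 0.37, and Slc1a1 in 5 of 6 (-0.28 to -0.21). Apart from Id2, which was still called without TAF15 OE 1 but at 0.31, against 0.49 with all libraries, no called gene named here moved by more than 1.42 times on the log2 scale. Leaving out Control 1 ended the calls of Sstr4, Slc1a1, Id2, Hapln1, Kcnc2, Crispld2, Cacna2d1, Egfr and Fgf13 (adjusted p of 0.0526 to 0.149). Leaving out Control 2 ended those of Slc38a3, Slc1a1, Sox6, Id2, Npas3, Hapln1, Egfr, Prcp, Scg5 and Cpe (0.0543 to 0.111). Without Control 3 the calls lost were those of Sstr4, Slc1a1, Id2, Npas3, Hapln1, Kcnc2, Cacna2d1, Fgf13 and Cpe (0.0503 to 0.152). Without TAF15 OE 1 they were Slc38a3, Slc1a1, Npas3, Hapln1 and Cpe (0.0629 to 0.0966), and without TAF15 OE 2 Sstr4, Slc38a3, Slc1a1, Sox6, Npas3, Hapln1, Kcnc2, Cacna2d1, Egfr, Fgf13 and Cpe (0.0508 to 0.208). Without TAF15 OE 3 they were Sstr4, Slc38a3, Npas3, Hapln1, Kcnc2, Egfr, Fgf13 and Cpe (0.0520 to 0.107). With Control 1 and TAF15 OE 1 left out together, Slc1a1, Npas3, Hapln1, Crispld2 and Prcp were not called, at adjusted p of up to 0.115. Sstr3, Cplx1, Crhbp, Cacna2d3, Ndnf and Pcsk2 were called with each library left out in turn. Under scaling on pan-neuronal genes, of the genes named here that fell only Crhbp (-0.47, adjusted p = 0.0317) was still called lower, beside Cck, and Kcnc2 (0.017) and Slc1a1 (0.040) changed sign without a call. Total counts and limma-voom did not call Slc1a1 (adjusted p = 0.102 and 0.0532) or Kcnc2 (0.0844 and 0.0590) either. On FPKM with a pseudocount of 1 or 0.1, Slc1a1, Kcnc2, Sox6, Crispld2, Egfr, Fgf13 and Scg5 were not called.

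A total of 103 other genes of the interneuron lists, all at a mean log2 CPM of 1 or more, were compared with each marker. The gene whose profile over the 6 libraries was most like that of Sst was Lamp5, by the root-mean-square difference of centred log2 CPM (0.073). Cck was most like Pvalb (0.11) and Lamp5 most like Cacna2d3 (0.062), so that 2 of the 4 falling markers had another falling marker as their nearest profile. Pvalb was most like Gabrd (0.076), a GABA-A receptor subunit gene, which was itself not called (log2 fold change -0.36, adjusted p = 0.0918). Gad1 was most like the transcription factor gene Satb1 (0.032), Npy like Slc1a1 (0.11) and Reln like its receptor gene Vldlr (0.068). Vip was most like the prepronociceptin gene Pnoc (0.10). For Calb2 the nearest was Crh (0.18, against 0.26 for the spread of Calb2 itself), and for Gad2 it was Sstr2 (0.063), about as far as the spread of Gad2 itself (0.069). These distances over 6 libraries contain the group difference as well as the spread between mice and are a description only.

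In the authors' deposited table the same 4 genes had an adjusted p below 0.05, all lower in TAF15 OE: Cck at a fold of 0.654 (adjusted p = 3.09e-10), Sst at 0.754 (7.37e-04), Lamp5 at 0.758 (0.00940) and Pvalb at 0.701 (0.0100). Of all genes given an adjusted p by the authors' deposited table, 7.53% were lower and 8.51% higher at that threshold. None of the 10 markers is marked significant in the authors' deposited table, where the smallest absolute log2 fold change of a gene so marked is 1.00.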

How the data were processed

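RNA-seq libraries of hippocampus from 6 mice were analysed from the deposited tables. Build GRCm38 and the tools HISAT2 2.1.0, Bowtie2 2.2.3, TopHat2 and CASAVA are named, per the submitters' processing notes, without their roles; for the counter, annotation release and strandedness, nothing is given in the sources used here. The authors deposited raw counts per Ensembl gene. The deposited FPKM values equalled count over gene length and library total within a relative deviation of 2.57e-09 across 8926 genes that exceeded 200 counts throughout. The authors' comparison table repeats the counts and adds a normalised signal (the mean over libraries), fold changes (a linear ratio and its log2) and raw and adjusted p-values from a test it does not name.

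Low genes were dropped with filterByExpr (count at least 10, total at least 15), libraries were scaled by TMM, and 16758 genes were tested with edgeR 4.0.16 in R 4.3.3 (quasi-likelihood F-test, group as the only term, Benjamini-Hochberg, called at an adjusted p below 0.05). Standard errors come from the F statistic. Levels in CPM use the scaled totals; TMM factors were 0.964 to 1.03, and the biological coefficient of variation was 13.1%. Alternatives were DESeq2 1.42.0 (size factors, test), total counts, scaling on 25 pan-neuronal genes, no count filter, a floor of 1 CPM on the mean, limma 3.58.1 (voom, or trend on FPKM in log2, pseudocount 1 or 0.1, a mean of at least 0.5 FPKM or no filter), the replicate number as a block, each library left out, and Control 1 and TAF15 OE 1 left out together. The markers, lists and alternatives were chosen with earlier results of these data known. Genes named beside the 10 were Taf15, Slc32a1, Lhx6, the receptor gene of each ligand with the highest mean FPKM over 6 libraries, all called receptors, up to 4 called genes with the smallest p of each other interneuron list, and the nearest profile of each marker; some genes under this rule are not reported here. Ebf3, 1 of the Cajal-Retzius list, and Sstr1 were named after their values were seen. Simulated counts with known changes were used to test the fits. Of the 10 markers, 9 have the same position in GENCODE M21, all but Sst. Promoter windows are from RefSeq, GRCm38.p6. Figures were drawn with matplotlib 3.10.9.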

Additional observations from a re-analysis of the deposited data

How the results depend on the processing

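Cck kept its direction and its call under all 18 alternatives, and with each library left out its log2 fold change ran from -0.65 to -0.55. The calls of Pvalb, Sst and Lamp5 were lost under scaling on pan-neuronal genes (-0.21, -0.11 and -0.099) and on FPKM, by limma-trend, with pseudocount 1 (-0.41, -0.33 and -0.30), pseudocount 0.1 (-0.43, -0.33 and -0.32) and without a filter (-0.41, -0.33 and -0.30); without Control 1 and TAF15 OE 1 those of Pvalb (-0.33) and Lamp5 (-0.33) were lost. Scaling on pan-neuronal genes also turned Npy (0.038), Gad1 (0.13), Slc32a1 (0.13), Lhx6 (0.19), Vipr1 (0.24), Cckbr (0.058), Npy2r (0.077), Slc1a1 (0.040), Kcnc2 (0.017) and Satb1 (0.13) positive, called Gad2 (0.30) and Reln (0.52) higher, and moved the median of the markers from -0.19 to 0.085. Reln was also called with total counts (0.30), without Control 1 and TAF15 OE 1 (0.29) and with the replicate block (0.24). Vipr1 turned to 0.017 with total counts, 0.0073 and 0.0077 on FPKM with a pseudocount of 1 and 0.1, 0.0073 on FPKM without a filter and 0.0016 without Control 1 and TAF15 OE 1. The cause of these shifts was not tested.

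With each library left out in turn, log2 fold changes ran from -0.60 to -0.39 for Pvalb, -0.45 to -0.31 for Sst, -0.43 to -0.35 for Lamp5, -0.35 to -0.15 for Npy, -0.22 to -0.11 for Gad1, -0.019 to 0.056 for Gad2, -0.0076 to 0.36 for Vip, -0.17 to 0.26 for Calb2, 0.17 to 0.31 for Reln, -0.15 to 0.0043 for Vipr1, -0.55 to 0.11 for Cckbr and -0.024 to 0.33 for Crh. The median of the markers ran from -0.26 to -0.13, the number called lower from 1 to 5 and higher from 0 to 1. The further lists then held 6 to 16 genes called lower and 2 to 9 called higher. In these fits 2.13% to 7.06% of all tested genes were called lower and 5.1% to 7.56% higher.

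Of the markers, 4 were called lower, where 5.95% of all tested genes were. The count was 1 under scaling on pan-neuronal genes, where 0.889% of all tested genes were called lower. It was also 1 on FPKM with pseudocount 1 (2.7% of all tested genes), pseudocount 0.1 (2.71%) and no filter (0.535%). Without Control 1 and TAF15 OE 1 it was 2, beside 5.99% of all tested genes. None was called higher by edgeR (Reln was at an unadjusted p of 0.0137), DESeq2 or limma-voom; 1 was with total counts, with the replicate block and without Control 1 and TAF15 OE 1, and 2 under scaling on pan-neuronal genes. Of the further lists, 11 genes were called lower. The count was 1 under scaling on pan-neuronal genes, 22 without a filter, 18 with DESeq2 and 18 with the replicate block. Of all tested genes 0.889%, 5.09%, 7.41% (DESeq2 test) and 8.28% were called lower there. On FPKM it was 6 with either pseudocount and 0 without a filter. The shares of all tested genes were 2.7% (pseudocount 1), 2.71% (pseudocount 0.1) and 0.535% (no filter). Of the same lists, 11 genes were called higher. There were 37, 18 and 7 under scaling on pan-neuronal genes, with the replicate block and without Control 1 and TAF15 OE 1. The shares of all tested genes called higher were 37.5%, 11.4% and 7.05%. On FPKM without a filter there were 0, beside 1.41% of all tested genes.

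The labels do not say what a replicate number marks, and the numbers were not treated as pairing the mice, since not every correlation was over 0.1. Same-numbered libraries deviated from their group means with correlations of 0.13, 0.078 and 0.087, each higher than with any other number of the other group. With the block 1904 genes were called higher and 1387 lower, against 1562 and 997 without it, and pairing is not settled by these data. Vip had the fewest counts of the markers, 135 to 257 per library. With 3 mice a group no permutation test of 1 value can pass.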
